A study of Mus musculus with 6 samples.

Results

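The B cell factors and signalling genes described here are 10 genes, Spib, Ebf1, Blnk, Btk, Bcl11a, Mef2c, Hhex, Cd40, Cd72 and Cd79b, taken by symbol from tables of 21233 genes measured in mouse Th9 cells. They were chosen because most were higher and Ebf1 was lower with sorafenib in these same libraries, so their differences between the groups are given as a description and carry no test. Th9 cells are CD4 T helper cells named for the cytokine interleukin 9, and sorafenib is a kinase inhibitor that blocks RAF and receptors such as those of VEGF and PDGF. RNA-seq was made from 3 libraries of Th9 cells without sorafenib (control; whether a vehicle was given is not in the labels) and 3 libraries of sorafenib-treated Th9 cells. The labels give neither dose, time, mouse strain and age nor how the cells were obtained and how pure they were, and they number the replicates without saying that these were separate cultures or animals, so the spread between libraries may be technical. The libraries held 36981476 to 38126521 counts, and control replicate 2 stood apart from the other control libraries: without it 4325 genes passed the test described below, against 2378 with all libraries. Without it every member kept its direction, which was near fixed in advance by how the members were chosen, and Btk alone moved by over 1.5 times.

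EBF1, Spi-B (from Spib), BCL11A, MEF2C and HHEX are transcription factors with roles in B lymphocyte development or function. EBF1 acts with PAX5 to commit progenitors to the B lineage and to turn on genes of the B cell receptor. In that receptor, membrane immunoglobulin is paired with the signalling chains CD79A and CD79B; after antigen binding, the kinases LYN and SYK act on CD79 tails, the adaptor BLNK assembles a complex, and the kinase BTK activates phospholipase C gamma 2. CD72 is an inhibitory coreceptor of B cells that recruits the phosphatase SHP-1, and CD40 is the receptor through which helper T cells carrying CD40 ligand stimulate B cells and other antigen-presenting cells. Several of these genes are not restricted to B cells: Spib, Bcl11a and Mef2c, for example, are also known from dendritic cells.

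Upstream sequences are shown for Spib and Cd72, which had the largest and the smallest fold difference among the 9 higher genes, and for sites in Blnk, because their letters hold matches to motifs of B lineage factors. The sequences are RefSeq promoters on the GRCm38.p6 build, read 5′ to 3′ on the gene's strand, and the capitals mark the matched letters. Spib, chr7:44532082-44532321, minus strand, and Cd72, chr4:43454637-43454876, minus strand, cover positions -250 to -11 from the annotated start, and neither overlaps an exon of GENCODE vM21. The Blnk stretches, chr19:40994333-40994362 and chr19:40994406-40994435, minus strand, come from an upstream window that overlaps an annotated Blnk exon.
Spib upstream: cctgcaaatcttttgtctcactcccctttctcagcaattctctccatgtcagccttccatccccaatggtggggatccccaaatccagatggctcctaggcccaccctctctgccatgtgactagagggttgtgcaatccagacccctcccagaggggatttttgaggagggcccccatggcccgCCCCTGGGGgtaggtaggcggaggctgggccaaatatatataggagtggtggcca
Cd72 upstream: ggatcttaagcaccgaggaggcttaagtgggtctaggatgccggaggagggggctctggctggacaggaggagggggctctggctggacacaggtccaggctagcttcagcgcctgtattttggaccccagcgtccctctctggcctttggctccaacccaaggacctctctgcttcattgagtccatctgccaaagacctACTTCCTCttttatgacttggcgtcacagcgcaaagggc
Blnk octamer site: tactggaagggATTTGCATgcccaataagg
Blnk ETS site: tttgggacaaacAGGAAGtagtgctcagtc
The EBF, PU box and octamer motifs were each in 1 of the 11 windows of 8 of these genes, and a MEF2 motif was in 0 of 11 and in 3.09% of all windows. The Spib window held CCCNNGGG, the palindrome that EBF proteins bind, in 2 overlapping copies from -65 to -57. This motif was in 11.4% of 32851 promoter windows of the same 240 bases. The Cd72 window held the PU box GAGGAAGT, a site type of PU.1 and Spi-B, on the opposite strand from -49 to -42, a motif found in 2.29% of all windows. The Blnk window held the octamer ATGCAAAT, the site of OCT factors, on the opposite strand from -130 to -123, found in 1.57% of all windows. The shorter ETS core AGGAAG, which lies inside the PU box, was in 4 of the 11 windows (Cd72, Blnk, Hhex and Mef2c) and in 28.4% of all windows. Both strands were searched, and Cd40 and Cd79b had no entry. A match is a description of the letters and not a measured site.

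Of the 10 genes, 9 were higher by CPM (counts scaled to library size) in every sorafenib library than in any control library, and 1, Ebf1, was lower. Over all 13255 tested genes, the groups did not overlap in the higher direction for 18.3% and in the lower direction for 18.0%, or 36.3% in either direction. The members were picked on this contrast, so nothing is read from the difference. Among the 9, all but Cd72 were at least 2-fold higher, as were 3.22% of tested genes, and Ebf1 was at least 2-fold lower, as were 2.98%. Btk, Bcl11a and Mef2c did not reach the level of the low-count filter in every control library and entered the fit through the sorafenib libraries. Fold changes come from the edgeR fit, with TMM-scaled CPM as mean ± SD over 3 libraries per group. In these bulk libraries, fewer cells of a type and less RNA per cell cannot be told apart.

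**Figure D1:**
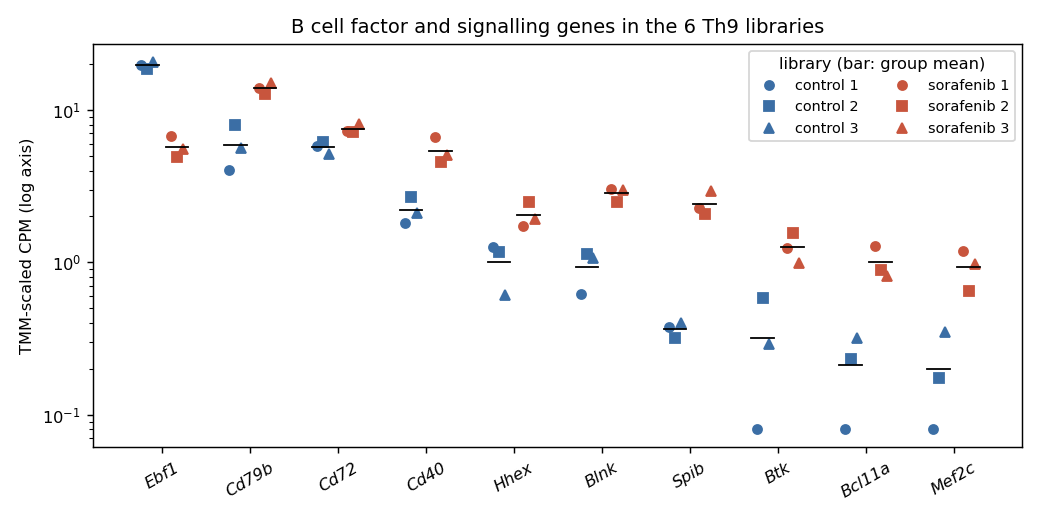
TMM-scaled CPM (log axis) of the 10 genes in each of the 6 libraries, with blue symbols for control, red symbols for sorafenib, 1 symbol shape per replicate number and a bar at each group mean. Ebf1 is the 1 gene whose sorafenib libraries lie below its control libraries, and control replicate 1 is the lowest point for 6 of the 10 genes.

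Among the transcription factors, Spib differed most. Spib had 14, 11 and 15 counts in the control libraries and 88, 80 and 115 in the sorafenib libraries. These are 0.365 ± 0.0412 and 2.43 ± 0.448 CPM, a 6.6-fold higher mean with sorafenib (log2 fold change 2.72 ± 0.29 SE). These counts are low, with 15 in the highest control library and 80 in the lowest sorafenib library.

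Ebf1 had the opposite direction. It had 738, 642 and 770 counts in control and 260, 189 and 217 in sorafenib libraries. The means were 19.6 ± 0.946 and 5.72 ± 0.896 CPM, 3.43-fold lower with sorafenib (log2 fold change -1.78 ± 0.13 SE). The control libraries of Ebf1 varied least of all 10 genes, with a coefficient of variation of 4.81%.

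BCL11A is a zinc-finger repressor needed for early lymphoid development, and MEF2C is a MADS-box factor that acts downstream of the B cell receptor. Bcl11a had 3, 8 and 12 counts in control and 50, 34 and 32 in sorafenib libraries (log2 fold change 2.23 ± 0.49 SE). Mef2c had 3, 6 and 13 counts in control and 46, 25 and 38 in sorafenib libraries (log2 fold change 2.20 ± 0.52 SE). Both genes were near the floor in control replicate 1, where 3 counts is also the limit that a count of 0 would allow. Their control libraries were spread widely, with coefficients of variation of 57.4% for Bcl11a and 67.3% for Mef2c, so the size of the fold is loosely set: for Mef2c it was 4.6 with all libraries and 7.3 without control replicate 3. HHEX, a homeobox factor of early haematopoiesis that acts in memory B cells, showed a smaller difference. Hhex had 47, 40 and 23 counts in control and 67, 96 and 75 in sorafenib libraries, 2.02-fold higher (log2 fold change 1.02 ± 0.32 SE). Its lowest sorafenib library and highest control library lie near each other, although they do not overlap.

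Of the receptor signalling genes, Cd79b, a signalling chain of the B cell receptor, was the most abundant per length. It had 151, 274 and 212 counts in control and 539, 486 and 592 in sorafenib libraries. The means were 5.88 ± 1.96 and 13.9 ± 1.22 CPM, 2.37-fold higher with sorafenib (log2 fold change 1.24 ± 0.20 SE). Control replicate 2 had the highest and control replicate 1 the lowest control value, and all control values lie below the sorafenib values.

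Blnk, the adaptor that links SYK to BTK and phospholipase C gamma 2, had 23, 39 and 40 counts in control and 118, 95 and 117 in sorafenib libraries. It was 3.02-fold higher (log2 fold change 1.59 ± 0.27 SE), and its sorafenib libraries were close to each other, with a coefficient of variation of 10.9%. Btk, the TEC-family kinase of this pathway, had 3, 20 and 11 counts in control and 48, 60 and 39 in sorafenib libraries. It was 3.99-fold higher with all libraries (log2 fold change 2.0 ± 0.54 SE) and 6.68-fold without control replicate 2. Its coefficient of variation in control, 78.9%, was the largest of the 10 genes.

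Cd72, the inhibitory coreceptor, had 216, 212 and 193 counts in control and 282, 274 and 317 in sorafenib libraries. Its means were 5.69 ± 0.513 and 7.5 ± 0.517 CPM, 1.32-fold higher (log2 fold change 0.40 ± 0.13 SE), the smallest difference of the 10. The groups do not overlap, but the nearest libraries are separated by less than in Cd79b or Blnk. Sema4d, which encodes a ligand of CD72, had 514 ± 64.4 CPM without and 544 ± 19.5 CPM with sorafenib (edgeR adjusted p = 0.627).

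Cd40 had 68, 92 and 79 counts in control and 257, 174 and 199 in sorafenib libraries. The means were 2.20 ± 0.432 and 5.41 ± 1.08 CPM, 2.46-fold higher (log2 fold change 1.3 ± 0.21 SE). Sorafenib replicate 1 stood highest, and each sorafenib library was above every control library. Cd40lg, the gene of CD40 ligand, rose 1.32-fold, from 8.03 ± 0.612 to 10.6 ± 0.921 CPM (edgeR adjusted p = 0.038, range over the alternatives 0.0169 to 0.19). Leaving out control replicate 3 (adjusted p = 0.12) or sorafenib replicate 1 (adjusted p = 0.0688), 2 (adjusted p = 0.094) or 3 (adjusted p = 0.19) ended that edgeR call, as did the replicate block (adjusted p = 0.0692) and unfiltered log2(FPKM + 1) (adjusted p = 0.0597).

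Levels were compared between genes only per length. On the deposited FPKM scale (reads scaled to library total and gene length), Cd79b led in both groups, at 4.61 ± 1.32 in control and 11.6 ± 0.994 in sorafenib cells, above Cd72 at 3.2 ± 0.223 and 4.45 ± 0.307 and Cd40 at 1.20 ± 0.176 and 3.12 ± 0.603. In control cells the libraries of Cd79b and Cd72 overlapped on this scale, while in sorafenib cells they did not. The control FPKM of Hhex (0.555 ± 0.192), Blnk (0.509 ± 0.139) and Ebf1 (0.48 ± 0.0434) overlapped as neighbours in the order. Mef2c was lowest in both groups, at 0.00346 ± 0.00239 and 0.017 ± 0.00478 FPKM. In control cells Cd79b had a higher FPKM than 67.1% of all genes in the table, Cd72 than 63.1%, Spib than 38.0% and Mef2c than 12.1%. In sorafenib cells these shares were 78.7% for Cd79b, 66.1% for Cd72, 50.1% for Spib and 23.3% for Mef2c.

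The lengths behind the deposited FPKM matter for this order. They were 39939 bases for Ebf1 and 56353 bases for Mef2c, 6.68 and 8.98 times the longest GENCODE vM21 transcript of each gene, while for Blnk the deposited length was 0.393 and for Hhex 0.453 times that transcript. Of the genes with a transcript of the same symbol, 6.29% had a deposited length more than 3 times the longest transcript. As CPM per kilobase of longest transcript, Ebf1 had 3.2 ± 0.29 in control cells, below Cd79b at 3.96 ± 1.14 and overlapping it, and above Cd72 at 2.14 ± 0.15. In sorafenib cells Ebf1 was at 0.981 ± 0.148 on this scale, below Cd79b, Cd72 and Cd40 and overlapping Spib at 0.895 ± 0.165. Mef2c stayed last in both groups, at 0.0311 ± 0.0215 and 0.153 ± 0.0429, with Bcl11a as its overlapping neighbour. The fold changes do not depend on the length.

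The labelled cell type was checked for its cytokine and for T cell genes. Il9, added to this check after other values were seen, had 6614, 7345 and 6979 counts in control and 10993, 9681 and 10335 in sorafenib libraries. Of genes that mark CD4 T cells in general, Cd3e stood at 207 ± 14.0 CPM without and 167 ± 5.45 CPM with sorafenib, and Cd4 at 475 ± 35.9 and 495 ± 10.7 CPM (edgeR adjusted p = 0.671 for Cd4). Of the defining B cell genes, Pax5 and Cd79a were present at low counts and were higher with sorafenib, as most members were. Pax5, the commitment factor of the B lineage, had 20, 43 and 23 counts in control and 126, 131 and 127 in sorafenib libraries and rose 4.14-fold (edgeR adjusted p = 0.00132). Cd79a, the partner of CD79B, had 47, 120 and 62 counts in control and 159, 196 and 233 in sorafenib libraries and rose 2.38-fold (adjusted p = 0.0231). Leaving out control replicate 1 (adjusted p = 0.0601) or 3 (adjusted p = 0.0958) or sorafenib replicate 1 (adjusted p = 0.0525), 2 (adjusted p = 0.0696) or 3 (adjusted p = 0.105) ended the edgeR call of Cd79a, as did unfiltered log2(FPKM + 1) (adjusted p = 0.0572), with adjusted p from 7e-06 to 0.105 over the alternatives. Ms4a1, the gene of the B cell surface protein CD20, had 0 to 2 counts in every library, under the floor of 3 counts. Immunoglobulin genes of the B cell marker list had no entry under the symbols used, so their RNA could not be checked here.

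Together, Cd79a, Ms4a1 and Pax5 summed to 67, 164 and 85 counts in control and 286, 329 and 362 in sorafenib libraries, or 2.94 ± 1.59 and 8.39 ± 0.953 CPM, a ratio of group means of 2.85. The order among control libraries was shared with other genes: control replicate 1 was the lowest control library for 6 of the 10 members, for 9 of 12 tested B cell markers and for 13 of 15 tested MHC class II genes, and for 34.6% of all tested genes. When each member's count was divided by this 3-gene sum in the same library, a comparison chosen after the values were seen, the groups overlapped for 7 of the 10 members. Blnk gave 0.343, 0.238 and 0.471 in control and 0.413, 0.289 and 0.323 in sorafenib libraries. Btk, Bcl11a, Mef2c, Hhex, Cd40 and Cd79b overlapped too. Spib was higher, at 0.209, 0.0671 and 0.176 in control and 0.308, 0.243 and 0.318 in sorafenib libraries. Ebf1 (from 8.0 ± 3.67 to 0.694 ± 0.186) and Cd72 (from 2.26 ± 0.966 to 0.898 ± 0.079) were lower relative to the sum. This division uses the values that chose the members, so a small fold such as that of Cd72 gives a lower ratio and a large one such as that of Spib a higher ratio, and the wide control spread of the sum makes overlap more likely. It tests no cause, and the part of B cell RNA in the members' differences was not tested.

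**Figure D2:**
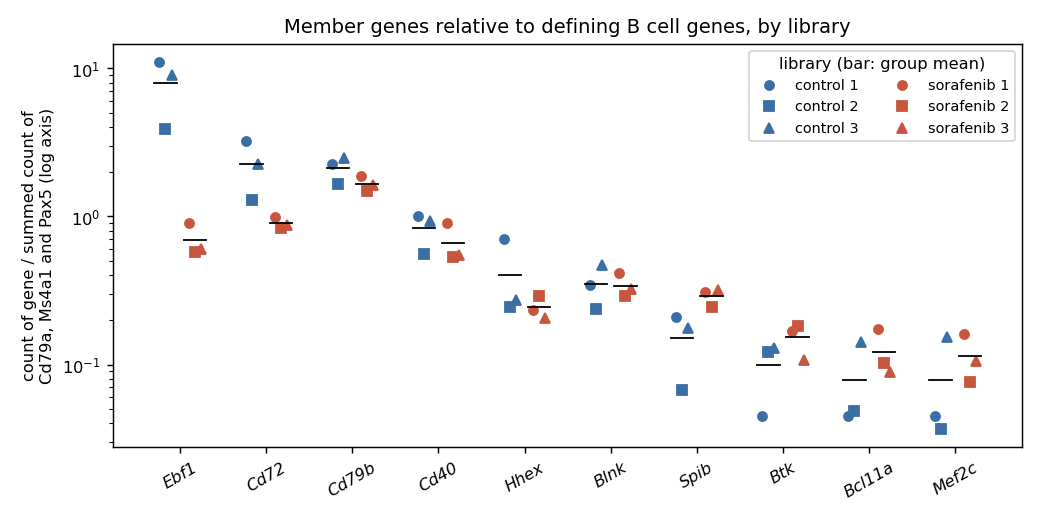
Count of each of the 10 genes divided by the summed count of Cd79a, Ms4a1 and Pax5 in the same library (log axis), with blue symbols for control, red symbols for sorafenib and a bar at each group mean. The groups overlap for Cd79b, Cd40, Hhex, Blnk, Btk, Bcl11a and Mef2c, Spib is higher with sorafenib, and Ebf1 and Cd72 are lower.

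Close relatives of the members include T cell counterparts that do the same job beside the T cell receptor. Of 25 such genes in the table, 20 were tested, 5 rose and 4 fell by edgeR's quasi-likelihood test at an adjusted p under 0.05, where 17.9% of all tested genes passed. The share among the relatives was 45.0%, and their median log2 fold change was 0.05, against -0.01 over all tested genes. Without sorafenib replicate 1 or without sorafenib replicate 3, 5 relatives passed. Summed, the relatives had 3626 to 3706 CPM in control and 2762 to 2872 CPM in sorafenib libraries. The fixed list also holds T cell receptors of the TNF receptor family and lectin genes, so it is not a list of B cell genes.

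The factors' relatives did not pass the test. Spi1, which encodes PU.1, the closest relative of Spi-B, had 13, 23 and 24 counts in control and 37, 32 and 39 in sorafenib libraries (adjusted p = 0.2). Elf1, another ETS factor, had an adjusted p of 0.345. Ebf4 had 6 to 9 counts in control and 12 to 20 in sorafenib libraries (adjusted p = 0.198), while Ebf2 and the ETS gene Spic had at most 4 and 1 counts in any library and were not tested. Bcl11b, the T lineage relative of Bcl11a, had 125 ± 19.2 CPM without and 152 ± 8.29 CPM with sorafenib (adjusted p = 0.0973, range over the alternatives 0.0205 to 0.277). It was called higher when control replicate 1 was left out (adjusted p = 0.0205) and with no low-count filter (adjusted p = 0.0457). Mef2a had 48.3 ± 5.92 CPM (adjusted p = 0.605) and Mef2d 114 ± 14.8 CPM in control (adjusted p = 0.875), and Mef2b had at most 3 counts in any library.

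The kinase and adaptor relatives went several ways. Tec, the founding member of the kinase family of Btk, fell 1.80-fold, from 157 ± 5.0 to 87.5 ± 9.51 CPM (adjusted p = 0.000119). Txk had 8.59 ± 1.47 and 8.69 ± 0.392 CPM (adjusted p = 0.953). Lcp2, which encodes SLP-76, the T cell counterpart of BLNK, rose 1.40-fold (adjusted p = 0.00383), from a mean of 188 ± 22.6 to 263 ± 2.92 CPM, and Clnk had at most 7 counts. Cd3e, a chain of the T cell receptor complex, fell 1.24-fold (adjusted p = 0.0129, range over the alternatives 3.69e-05 to 0.203). Leaving out control replicate 3 (adjusted p = 0.0765) or sorafenib replicate 1 (adjusted p = 0.0793), 2 (adjusted p = 0.051) or 3 (adjusted p = 0.0709) ended that call, as did total counts only (adjusted p = 0.0892) and the FPKM scales.

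Among receptors related to CD40, Tnfrsf13c, the BAFF receptor of B cells, had 25, 34 and 34 counts in control and 94, 86 and 101 in sorafenib libraries and rose 2.82-fold (adjusted p = 0.00262). Tnfrsf1b, a TNF receptor, rose 1.23-fold (adjusted p = 0.00831, range over the alternatives 0.000521 to 0.0619), and its call ended when sorafenib replicate 1 (adjusted p = 0.0522) or 3 (adjusted p = 0.0619) was left out. The activation receptor gene Tnfrsf9 fell 2.50-fold, from 1170.1 ± 98.6 to 468 ± 16.5 CPM (adjusted p = 1.25e-05). Tnfrsf18 fell 1.27-fold (adjusted p = 0.0115, range over the alternatives 0.000174 to 0.0782), and its call ended when sorafenib replicate 1 (adjusted p = 0.0782) or 3 (adjusted p = 0.0746) was left out and on unfiltered log2(FPKM + 1) (adjusted p = 0.0609). Tnfrsf13b (adjusted p = 0.789) and Tnfrsf4 (adjusted p = 0.154) did not pass. Of the C-type lectin genes set beside Cd72, Clec2i rose 2.52-fold (adjusted p = 0.000275), Clec2d had an adjusted p of 0.0687, and Klrb1 had at most 4 counts. Clec2d was called lower by DESeq2 (adjusted p = 0.0438), with no low-count filter (adjusted p = 0.0258) and when sorafenib replicate 2 was left out (adjusted p = 0.0358), with adjusted p from 0.0258 to 0.345 over the alternatives. Clec2 genes resemble each other, so reads shared between them leave single values uncertain.

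**Figure D3:**
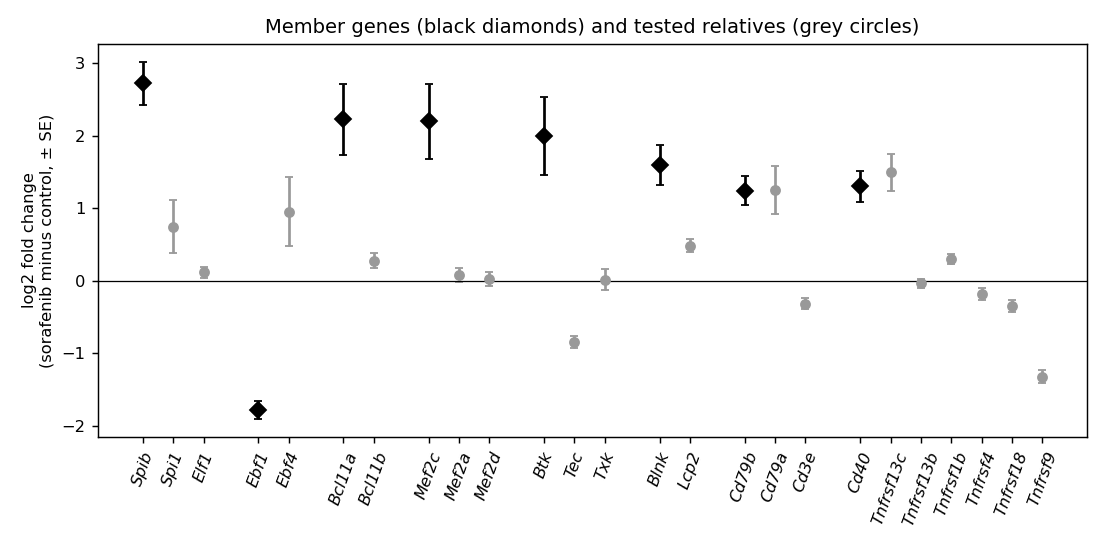
Log2 fold change (sorafenib minus control, ± SE) of 8 of the 10 genes (black diamonds) beside tested relatives (grey circles). Ebf1 lies at -1.78, Btk at 2.0 and its relative Tec at -0.85, and Cd79a at 1.25 lies beside Cd79b at 1.24.

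Other transcription factors of the B lineage were counted without the members. Of 22 tested, 5 rose and 4 fell, 40.9% against 17.9% of all tested genes, with a median log2 fold change of 0.22. With total counts only, 6 rose and 2 fell, and without control replicate 2, 9 rose and 7 fell. Without control replicate 3 or on filtered log2(FPKM + 1), 6 rose and 1 fell, on both unfiltered FPKM scales 4 rose and 1 fell, and without sorafenib replicate 1 or 3, 4 rose and 2 fell, so the balance of directions is loosely set. Beside Pax5, the rises include Pou2af1, the coactivator of OCT factors in B cells (2.50-fold, from 2.78 ± 0.282 to 6.96 ± 0.499 CPM, adjusted p = 0.000246), Klf2, a quiescence factor of lymphocytes (1.85-fold, adjusted p = 0.000218) and Rel, an NF-kappaB subunit (1.52-fold, adjusted p = 0.00155). The falls include Irf8, a factor of B cells and dendritic cells (1.33-fold, adjusted p = 0.00518). Klf2 and Rel are also expressed in T cells. Summed over the list, these factors had 2539 to 2918 CPM in control and 2422 to 2502 CPM in sorafenib libraries, lower despite the positive median.

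Of 39 other B cell receptor signalling genes tested, 13 rose and 5 fell, 46.2% against 17.9% of all tested genes, with a median log2 fold change of 0.23. With total counts only, 17 rose and 3 fell. Bank1 (4, 6 and 9 counts in control), among the 13 rises, entered the test through the sorafenib libraries alone and had to differ. Blk (8, 26 and 5 counts in control), another of them, was below the level of the low-count filter in control replicates 1 and 3. Both are in the share of 46.2%. Syk, the kinase that BLNK works beneath, had 75, 67 and 83 counts in control and 307, 227 and 246 in sorafenib libraries and rose 3.25-fold (adjusted p = 0.000126). Ptpn6, which encodes SHP-1, the phosphatase recruited by CD72, rose 1.43-fold (adjusted p = 0.000437), from 155 ± 5.54 to 222 ± 6.46 CPM. Plcg2, the phospholipase that BTK activates, rose 1.68-fold, from 12.3 ± 0.679 to 20.6 ± 1.28 CPM (adjusted p = 0.000471). Lilrb4a, an inhibitory immunoglobulin-like receptor, fell 3.44-fold, from 159.6 ± 20.5 to 46.5 ± 3.56 CPM (adjusted p = 4.69e-06), and has close relatives that may share its reads. Plcg2 was singled out after its values were seen, for its place beneath BTK. Summed, the list overlapped between the groups, at 4627 to 5022.5 CPM in control and 4650 to 4870 CPM in sorafenib libraries.

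Of 26 other CD40 pathway genes tested, 11 rose and 2 fell, 50.0% against 17.9% of all tested genes, with a median log2 fold change of 0.22. Summed, the list overlapped between the groups, at 3085 to 3172 CPM in control and 2954 to 3251 CPM in sorafenib libraries. Nfkb2, the NF-kappaB subunit processed after CD40 signals, rose 1.58-fold, from 204.5 ± 4.1 to 322 ± 25.6 CPM (adjusted p = 0.000262). Bcl2a1b, a BCL2-family survival gene with near-identical copies, rose 3.0-fold, from 4.22 ± 0.756 to 12.6 ± 0.819 CPM (adjusted p = 7.44e-05). The adaptor gene Traf1 fell 1.55-fold, from 243 ± 2.27 to 156.9 ± 7.37 CPM (adjusted p = 0.000142), and the kinase gene Ripk2 fell 1.56-fold, from 64.8 ± 5.67 to 41.5 ± 1.91 CPM (adjusted p = 0.000542).

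Marker lists of the cell types these libraries could hold were counted the same way, again without the members. Of 17 B cell markers in the table, 12 were tested, and 7 rose and 1 fell. The share was 66.7% against 17.9% of all tested genes, with a median log2 fold change of 1.57. Bank1, a scaffold of B cell receptor signalling, had 4, 6 and 9 counts in control and 42, 43 and 40 in sorafenib libraries and rose 6.09-fold (adjusted p = 0.00179). All its control libraries lay below the level of the low-count filter, so Bank1 entered the test through the sorafenib libraries alone and had to differ. Blk, also among the rises, was below that level in control replicates 1 and 3. Cd22, an inhibitory lectin of B cells, had 28, 42 and 40 counts in control and 128, 131 and 131 in sorafenib libraries and rose 3.31-fold (adjusted p = 0.000745). Cd24a, which many cell types express, fell 2.04-fold (adjusted p = 0.00145). The summed level of the list, carried mostly by Cd37 and Cd24a, was 170.0 to 195 CPM in control and 166 to 169 CPM in sorafenib libraries, and 5 of its genes, Ms4a1 among them, had under 10 counts in every library.

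The list of pre-B cell and EBF1 target genes, tested because Ebf1 was the 1 lower member, had 6 rises and 2 falls among 14 tested. The share was 57.1% against 17.9% of all tested genes, with a median log2 fold change of 0.65. Besides Pax5, Cd79a, Pou2af1 and the kinase gene Blk, all shared with the lists above, Sox4, an SRY-related factor of progenitors, rose 2.94-fold (adjusted p = 0.000103). Cd93, a surface gene of early B cells and endothelium, fell 17.2-fold, from 17 ± 0.951 to 0.989 ± 0.257 CPM (adjusted p = 1.09e-06), and Il7r, the interleukin 7 receptor chain that T cells also carry, fell 1.55-fold (adjusted p = 0.000126). Igll1, a surrogate light chain gene, had at most 1 count in any library. Of the rises, Blk was below the level of the low-count filter in control replicates 1 and 3 (8 and 5 counts).

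MHC class II genes, which B cells and other antigen-presenting cells express, had 9 rises and 1 fall among 15 tested. The share was 66.7% against 17.9% of all tested genes, with a median log2 fold change of 0.42. Ciita, among the rises, had 8, 16 and 16 counts in control. It did not reach the level of the low-count filter in every control library and entered the test through the sorafenib libraries. H2-Eb1 was 3.92-fold, H2-Aa 3.22-fold, Cd74 3.10-fold and H2-DMb2 2.51-fold higher (adjusted p from 4.54e-05 to 0.000746). The 1 fall was in H2-Ab1, the chain that pairs with H2-Aa, from 243.6 ± 32.2 to 162.7 ± 4.70 CPM, 1.5-fold lower (adjusted p = 0.00171), a gene singled out after its values were seen. The summed level of the list, to which H2-Ab1 adds the most counts in control, was 434 to 556 CPM in control and 553 to 578 CPM in sorafenib libraries. Among 15 tested dendritic cell markers, 5 passed as higher and 2 as lower (46.7% against 17.9%, median log2 fold change 0.15). Flt3, a growth factor receptor of dendritic cell precursors, was 2.33-fold (adjusted p = 0.00245) and Fscn1 1.5-fold (adjusted p = 0.00688) higher, and Irf8 and Batf3 were lower. The summed level of the dendritic cell list was 1323 to 1569 CPM in control and 1178.5 to 1344 CPM in sorafenib libraries. Cox6a2, among the rises of this list, had 14, 25 and 2 counts in control and likewise entered through the sorafenib libraries. Batf3 lost its call when sorafenib replicate 1 was left out (adjusted p = 0.0575) and on both unfiltered FPKM scales (adjusted p = 0.0507 and 0.0632).

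Among 6 tested monocyte and macrophage markers, 1 passed as higher and 1 as lower (33.3% against 17.9% of all tested genes, median 0.63). Cebpb was 1.34-fold higher (adjusted p = 0.00658, but 0.0508 when sorafenib replicate 3 was left out) and Ccr2 2.86-fold lower (adjusted p = 0.00789). Of the 20 genes of this list in the table, 9 had under 10 counts in every library. The summed level of the list was 43.6 to 49.3 CPM in control and 54.0 to 58.3 CPM in sorafenib libraries. Among 10 tested plasma cell markers, 1 passed as higher and 3 as lower (40.0% against 17.9%, median -0.24). Mzb1 was 3.32-fold higher (adjusted p = 0.021), Slamf7 was 2.87-fold lower (adjusted p = 4.69e-06), and Prdm1 and Xbp1 were lower by less. The calls of Mzb1 and Xbp1 ended when control replicate 3 (adjusted p = 0.0808 and 0.109), sorafenib replicate 1 (adjusted p = 0.0696 and 0.113) or sorafenib replicate 3 (adjusted p = 0.0774 and 0.128) was left out, that of Xbp1 also when sorafenib replicate 2 was left out (adjusted p = 0.108), and that of Prdm1 when control replicate 3 (adjusted p = 0.0801) or sorafenib replicate 1 (adjusted p = 0.116) or 2 (adjusted p = 0.104) was left out. Mzb1 also lost its call with no filter (adjusted p = 0.194) and on log2(FPKM + 0.1) (adjusted p = 0.0515), Prdm1 on the 3 FPKM scales (adjusted p = 0.148 to 0.17), and Xbp1 on those scales (adjusted p = 0.0578 to 0.0975), with total counts only (adjusted p = 0.0727) and with the replicate block (adjusted p = 0.0616). The summed level of plasma cell markers was 1852 to 2101 CPM in control and 1554 to 1641 CPM in sorafenib libraries.

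Among 9 tested NK and innate lymphoid markers, 1 passed as higher, Il1rl1, and 2 as lower (33.3% against 17.9% of all tested genes, median 0.09). Gzma was 11.8-fold and Prf1 3.97-fold lower. The summed level of the list was 76.2 to 77.9 CPM in control and 56.1 to 58.3 CPM in sorafenib libraries. The call of Il1rl1, the interleukin 33 receptor gene (2.18-fold, adjusted p = 0.0208), ended when control replicate 3 (adjusted p = 0.0666) or sorafenib replicate 1 (adjusted p = 0.0785), 2 (adjusted p = 0.072) or 3 (adjusted p = 0.0769) was left out and on both unfiltered FPKM scales (adjusted p = 0.0717 and 0.0746). T cell markers went mostly the other way, with 1 rise, Tcf7 at 1.89-fold, and 9 falls among 16 tested (62.5% against 17.9%, median -0.30). T cell receptor counterparts of the signalling genes had 3 rises and 9 falls among 28 (42.9% against 17.9%, median -0.07). The T cell marker sum was 4090 to 4148 CPM in control and 3522 to 3634 CPM in sorafenib libraries. Themis, a T cell signalling adaptor, fell 1.88-fold (adjusted p = 3.15e-05), Cd2 fell 1.5-fold and Cd28 fell 1.46-fold. The part of any of these cell types in the members' differences was not tested.

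**Figure D4:**
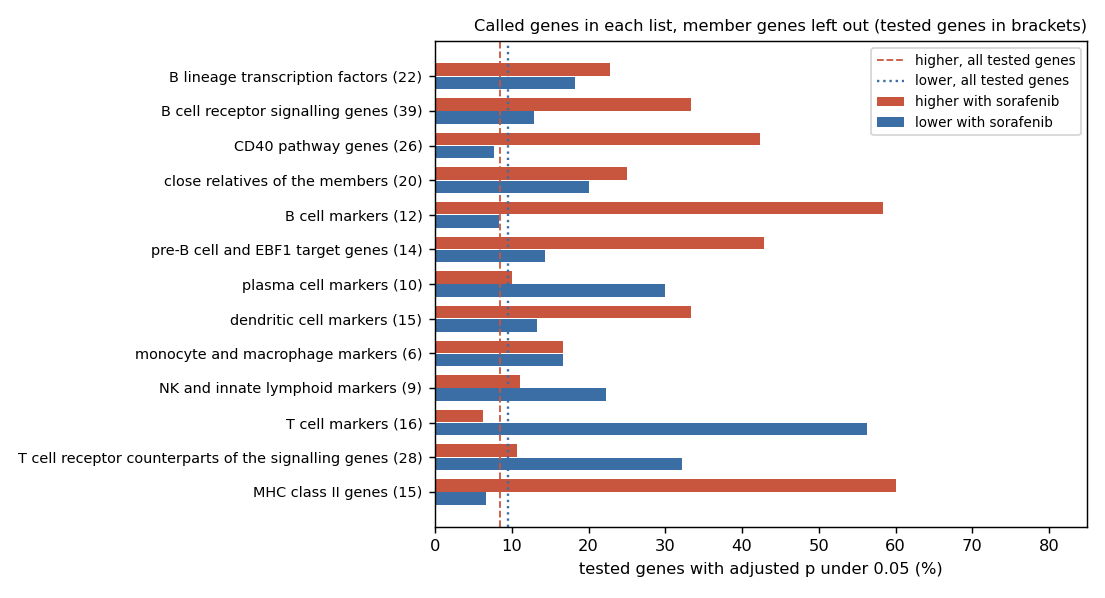
Share of tested genes in each list, members left out, that passed an adjusted p under 0.05 in the higher (red) and the lower (blue) direction, with the number of tested genes in brackets and vertical lines at the shares over all tested genes, 8.51% higher (dashed) and 9.43% lower (dotted). B cell markers, MHC class II genes and CD40 pathway genes lie above the line mostly in the higher direction, and T cell markers mostly in the lower. Bank1, Blk, Ciita and Cox6a2, counted as higher, entered the test through the sorafenib libraries.

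The tested genes whose levels followed Spib and Ebf1 most closely were named by the smallest Euclidean distance in centred log2 CPM over the 6 libraries. For Spib these were Fam167a (distance 0.422, log2 fold change 3.08), the calcium channel gene Cacna1g (0.602, log2 fold change 2.80) and Smad6, an inhibitor of BMP signalling (0.634, log2 fold change 2.60). For Ebf1 they were Prf1, which encodes perforin (0.36, log2 fold change -1.99), the receptor gene Lgr4 (0.378, log2 fold change -1.69) and the interferon-induced gene Ifitm3 (0.386, log2 fold change -1.69). Fam167a, Cacna1g and Smad6 lay below the level of the low-count filter in every control library. They entered the test through the sorafenib libraries alone and had to differ. With 2 groups of 3 libraries, the likeness to Spib and Ebf1 reflects mostly the difference between the groups and is a description of these libraries.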

How the data were processed

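RNA-seq of 6 mouse Th9 libraries, 3 control and 3 sorafenib by their titles, was used. Whole-number counts per gene and FPKM were deposited by the authors. The submitters' processing notes name HISAT2, HTSeq, fastp, DESeq2 and R 3.2.0, and the build GRCm39. Not given in the sources used here were the step each served, the strand setting and how shared reads were treated. Overlapping genes, antisense genes and close paralogs are therefore uncertain. Each deposited FPKM was the count over its column total and 1 length for the gene. Totals were 36981476 to 38126521 counts, and 3 counts, the floor, were 0.0787 to 0.0811 CPM, which covers counting error only. Among control libraries, replicate 2 was farthest from its group (0.525 log2 units, root mean square, against 0.448 and 0.461).

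Counts were filtered with filterByExpr (13255 of 21233 genes), TMM-scaled and tested with edgeR 4.0.16 in R 4.3.3 (quasi-likelihood, robust, group only), with Benjamini-Hochberg adjustment over all tested genes and a threshold of 0.05. On simulated data for sorafenib against control, with 200 genes changed and about 13088 tested, it recovered 58.8% of the 1.5-fold and 80.5% of the 2-fold changes, and 7.67% of its calls were false. These rates depend on the number of changed genes, and 2378 genes were called in the real libraries. The simulation also set no control library apart, so its rates need not hold for the real comparison. Alternatives were DESeq2 size factors, total counts, other filters, a replicate block, leaving out each library, DESeq2 1.42.0, limma 3.58.1 on log2(FPKM + 1) and log2(FPKM + 0.1), a threshold of 0.01 and, for members, a prior count of 2. Of 261 symbols in 13 lists, 237 were in the table. The members, lists and tests were chosen with earlier results of these data known. Named genes are the members, all their relatives, up to 4 called genes per list with the smallest adjusted p (or 2 with the smallest p), defining B and T cell genes and ligands, and the 3 nearest genes of Spib and Ebf1; Il9, H2-Ab1, Plcg2, Igll1 and Cd37 were added after their values were seen. A few of these are not reported here but stay in the list counts.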

Additional observations from a re-analysis of the deposited data

How the results depend on the processing

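All 10 members kept their direction in every alternative that could give them a value. They were picked on this contrast and their groups do not overlap, so this was near fixed in advance and nothing is read from it. With mean FPKM of at least 0.5, 5 members had a value and 5 were higher, since fewer genes were tested. Across count-based alternatives the log2 fold change ran from 2.56 to 2.83 for Spib, from -1.91 to -1.68 for Ebf1, from 1.53 to 2.74 for Btk and from 0.34 to 0.48 for Cd72. On log2(FPKM + 1), which compresses low values, Spib was at 0.62, Ebf1 at -0.37 and Mef2c at 0.02. Of 60 other tested genes of the naming rule, 11 lost and 2 gained a call in at least 1 alternative. Genes added after their values were seen are not in this count, and of these Blk lost and Fcer2a gained a call.

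The count over all tested genes, 2378, was 1546 on log2(FPKM + 0.1) and 1423 on log2(FPKM + 1) without a filter and 1227 at a threshold of 0.01. With total counts only, 1496 were higher and 826 lower, against 1128 and 1250, and on filtered FPKM 1398 and 744. B lineage factors numbered 5 on both unfiltered FPKM scales, against 9. Leaving out 1 library gave 1243 to 4325 genes in all (4325 without control replicate 2, 1294, 1549 and 1243 without sorafenib replicates 1, 2 and 3), 6 to 16 B lineage factors, 12 to 24 receptor signalling genes, 9 to 17 CD40 pathway genes, 5 to 10 relatives, 35 to 67 genes of the other lists (35 without sorafenib replicate 1), against 53, and 9 members higher in each case. The cause was not tested.

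Labels share replicate numbers, but same-numbered libraries deviated together with correlations of -0.0627, 0.152 and 0.102, so the numbers were not taken as pairs, and control replicate 1 correlated best with sorafenib replicate 3. With the replicate block 2139 genes passed in all, 10 B lineage factors, 18 receptor signalling genes, 11 CD40 pathway genes, 9 relatives and 50 genes of the other lists, 9 members were higher, and among named genes the calls of Cd40lg (adjusted p = 0.0692) and Xbp1 (adjusted p = 0.0616) were lost. Low counts limit Btk, Bcl11a and Mef2c, each at 3 counts in control replicate 1.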

Other observations

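Early lymphoid genes of the pre-B list were present in these Th9 libraries without passing the test, and were singled out after their values were seen. Dntt, which encodes terminal transferase, the polymerase that adds bases to rearranging antigen receptor genes, had 1015, 1285 and 1115 counts in control and 912, 1152 and 1013 in sorafenib libraries (edgeR adjusted p = 0.229). Rag1, a chain of the recombinase, had 15 to 35 counts in control and 26 to 31 in sorafenib libraries (adjusted p = 0.707).

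Fcer2a, the low-affinity IgE receptor of B cells, had 0, 22 and 10 counts in control and 34, 54 and 41 in sorafenib libraries (adjusted p = 0.107, range over the alternatives 0.00322 to 0.268, so it passed in at least 1), with control replicate 1 again the lowest. Blk, a B cell kinase, had 8, 26 and 5 counts in control and 54, 69 and 38 in sorafenib libraries and rose 3.80-fold (adjusted p = 0.0372, range over the alternatives 0.000149 to 0.135), with 2 of its control libraries below the level of the low-count filter.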
